A study of Mus musculus with 18 samples.

Results

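The genes described here encode 8 subunits of the GABA-A receptor, the chloride channel through which GABA inhibits most neurons: the alpha subunits Gabra2, Gabra3, Gabra4, Gabra5 and Gabra6, the beta subunits Gabrb1 and Gabrb2, and the delta subunit Gabrd. They were chosen by symbol, and all 8 were found among the 53468 genes of the count table. RNA was measured in forebrain, midbrain and hindbrain of 3 Fmr1CRE and 3 wild-type (WT) mice of 1 litter at postnatal day 25, which gives 18 libraries of poly(A) RNA and 6 groups of 3 mice. Fmr1CRE mice carry, by genome editing, a knock-in of a variant in a candidate cis-regulatory element of Fmr1, and WT mice are their littermates. Each mouse gave a library from each region, so regions of the same mouse are not independent, and the sequencing methods do not state the sex of the mice, though the study speaks of males in its postnatal expression work. The libraries sample a single age and whole dissected regions that each hold many cell types, and which of the independently made Fmr1CRE lines the mice came from is not given in the sources used here.

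A GABA-A receptor is a ring of 5 subunits, usually alpha and beta subunits with a gamma or delta subunit, and the alpha subunit sets much of its pharmacology and location. Receptors with alpha2 or alpha3 and a gamma subunit sit mostly at synapses, those with alpha5 are known for tonic inhibition in hippocampus, and those with alpha4 or alpha6 and delta lie outside synapses and respond to low ambient GABA. The alpha6 subunit is known as a product of cerebellar granule neurons, and alpha4 with delta as a pair of forebrain and thalamic neurons.

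The 5 alpha genes differ at 1 codon that governs benzodiazepine binding. Alpha2, alpha3 and alpha5 carry a histidine there and bind classical benzodiazepines, while alpha4 and alpha6 carry an arginine and do not. The stretches below, 30 bases of coding sequence from the GENCODE M21 transcripts (GRCm38), are shown because they split the alpha genes into the groups whose shares are compared further on. All lie on the minus strand within 1 exon and are written in the sense of the mRNA, with the codon in capitals.
Gabra2 (chr5:71014490-71014519, exon 5): gataccttctttCACaatgggaaaaagtca
Gabra3 (chrX:72501153-72501182, exon 5): gataccttcttcCACaatggtaaaaaatca
Gabra5 (chr7:57488876-57488905, exon 5): gacacgttcttcCACaacggcaagaagtcc
Gabra4 (chr5:71641137-71641166, exon 4): gatactttcttcAGGaatggaaagaaatct
Gabra6 (chr11:42317632-42317661, exon 4): gacacttttttcCGGaatgggaaaaagtca

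Most of the genes stand in clusters with other subunit genes. Gabra2, Gabra4 and Gabrb1 lie within 1.19 megabases of chromosome 5 (GRCm38), Gabra4 (chr5:71569749-71658308) and Gabrb1 (chr5:71658113-72149037) head to head with 46 exonic bases in common on opposite strands. Gabra6 (chr11:42306437-42321072) and Gabrb2 (chr11:42419757-42629028) lie within 0.323 megabases of chromosome 11. Gabra5 (chr7:57407672-57510059), Gabra3 (chrX:72432681-72656848) and Gabrd (chr4:155384980-155398112) are apart from these. Whether the counting used strand is not stated, so reads from the bases that Gabra4 and Gabrb1 have in common cannot be told apart. The same holds for 148 exonic bases that Gabra5 has in common with Gm9962 on the opposite strand.

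Promoter windows of RefSeq (GRCm38.p6, 250 bases before to 50 after the start) were held for 7 of the 8 genes, 11 windows in all. Gabra2 and the first Gabrb1 window hold 25 CpG each, as many as or more than 83.1% of the 32851 windows of the table. Gabra4 holds 12 and Gabra5 13, against a median of 7 over the table. Gabra6 holds 2 and both Gabra3 windows none. The letters TTGGCA or their reverse complement TGCCAA, the core of nuclear factor I sites, were searched in all windows and are found in 14.1% of them. Among the 11 windows of these genes they are found in 1, that of Gabra6, where TGCCAA begins 50 bases before the start. The bases before the start of Gabra6, the gene with the largest differences between regions, and of Gabra4, the one most in favour of forebrain, are shown to set them side by side. They lie at chr11:42321073-42321322 and chr5:71658364-71658558, both on the minus strand, with TGCCAA in capitals for Gabra6 and each CpG in capitals for Gabra4, whose 55 bases nearest the start are left out because they lie in an annotated exon.
Gabra6: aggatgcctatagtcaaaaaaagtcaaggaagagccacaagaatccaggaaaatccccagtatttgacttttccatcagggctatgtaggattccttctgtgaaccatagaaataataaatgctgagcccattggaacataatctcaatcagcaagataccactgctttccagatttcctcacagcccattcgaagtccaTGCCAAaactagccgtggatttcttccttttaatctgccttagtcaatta
Gabra4: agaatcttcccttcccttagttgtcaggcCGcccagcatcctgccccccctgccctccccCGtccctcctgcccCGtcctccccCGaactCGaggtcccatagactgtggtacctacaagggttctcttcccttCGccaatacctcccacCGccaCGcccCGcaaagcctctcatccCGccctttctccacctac
These letters describe the windows and say nothing of which factors bind there.

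Totals were 22455512 to 28061185 counts per library. The targeted gene, Fmr1, differed little between genotypes, with log2 fold changes of -0.00, 0.01 and 0.15 in forebrain, midbrain and hindbrain (edgeR adjusted p = 0.996, 0.995 and 0.906). Markers of neighbouring regions were measured in the dissections. The summed level of 10 cerebellar granule neuron markers was 335 to 378 counts scaled to the library (CPM, TMM-normalised) in forebrain, 545 to 966 in midbrain and 858 to 1646 in hindbrain. In forebrain Cbln3 and Fat2 of this list reached at most 7.74 and 6.18 CPM, so the sum there came mostly from other genes of the list. The list's median log2 CPM was 3.42 to 3.76 in forebrain, 5.66 to 6.78 in midbrain and 6.24 to 7.09 in hindbrain. The summed excitatory neuron markers of cortex and hippocampus were at 1939 to 3624 CPM in midbrain against 330 to 460 in hindbrain. Thalamic neuron markers summed to 134 to 372 CPM in forebrain, 380 to 591 in midbrain and 241 to 316 in hindbrain. The median log2 CPM of the thalamic list overlapped between forebrain and midbrain, reaching 4.51 and 4.64. The part of thalamic content in the levels of Gabra4 and Gabrd was not tested. As a check of labels, the genes that differed by at least 1.5 (log2) between the Fmr1CRE and the WT mouse labelled replicate 3 in both midbrain and hindbrain, 19 in all, were followed into forebrain, where 1 differed that much in the same direction and 6 in the opposite one. Among the 8 other pairings of an Fmr1CRE with a WT mouse, 2 to 6 went the same way and 2 to 7 the opposite way. For the 8 subunit genes, forebrain differences between regions and, where tested, between genotypes are therefore also given without the mice of replicate 3. So are their shares between regions, but not the ratios of neighbouring genes or the other gene lists.

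The 3 regions differed most in which alpha subunit they expressed. Gabra6 was by far the highest of the 8 genes in hindbrain and nearly absent from forebrain, Gabra4 led in forebrain, and midbrain held both at intermediate levels. Gabra2, Gabra3, Gabra5, Gabrb1 and Gabrb2 were lower in hindbrain than in both other regions. In forebrain against hindbrain, edgeR's quasi-likelihood test called 8 of the 8 genes at an adjusted p under 0.05, 7 higher and 1 lower in forebrain, where 51.7% of the 20363 genes tested were called (26.4% higher and 25.3% lower). Of the 8, 2 also differed at least 2-fold, against 18.7% of all genes. In midbrain against hindbrain 7 of 8 were called, 6 higher and 1 lower in midbrain, against 49.1% of all genes (25.1% higher and 24.0% lower), and 4 differed at least 2-fold against 14.8%. In forebrain against midbrain 4 of 8 were called, 2 in each direction, against 19.3% of all genes (9.38% higher and 9.96% lower), and 1 differed at least 2-fold against 4.09%. The 6 libraries of a region lay wholly above or below those of another for 4 of 8 genes in forebrain against hindbrain (27.7% of all genes), for 3 in forebrain against midbrain (10.5%) and for 6 in midbrain against hindbrain (26.9%). Gabra6 passed the filter on low counts only through midbrain and hindbrain, so its calls against forebrain, which these counts include, are a description and not support. The median log2 fold change of the 8 genes was 0.64 in forebrain against hindbrain, -0.05 in forebrain against midbrain and 0.64 in midbrain against hindbrain, beside -0.01, 0.02 and -0.03 over all genes tested. In whole tissue, fewer cells of a type and less RNA per cell cannot be told apart.

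**Figure D1:**
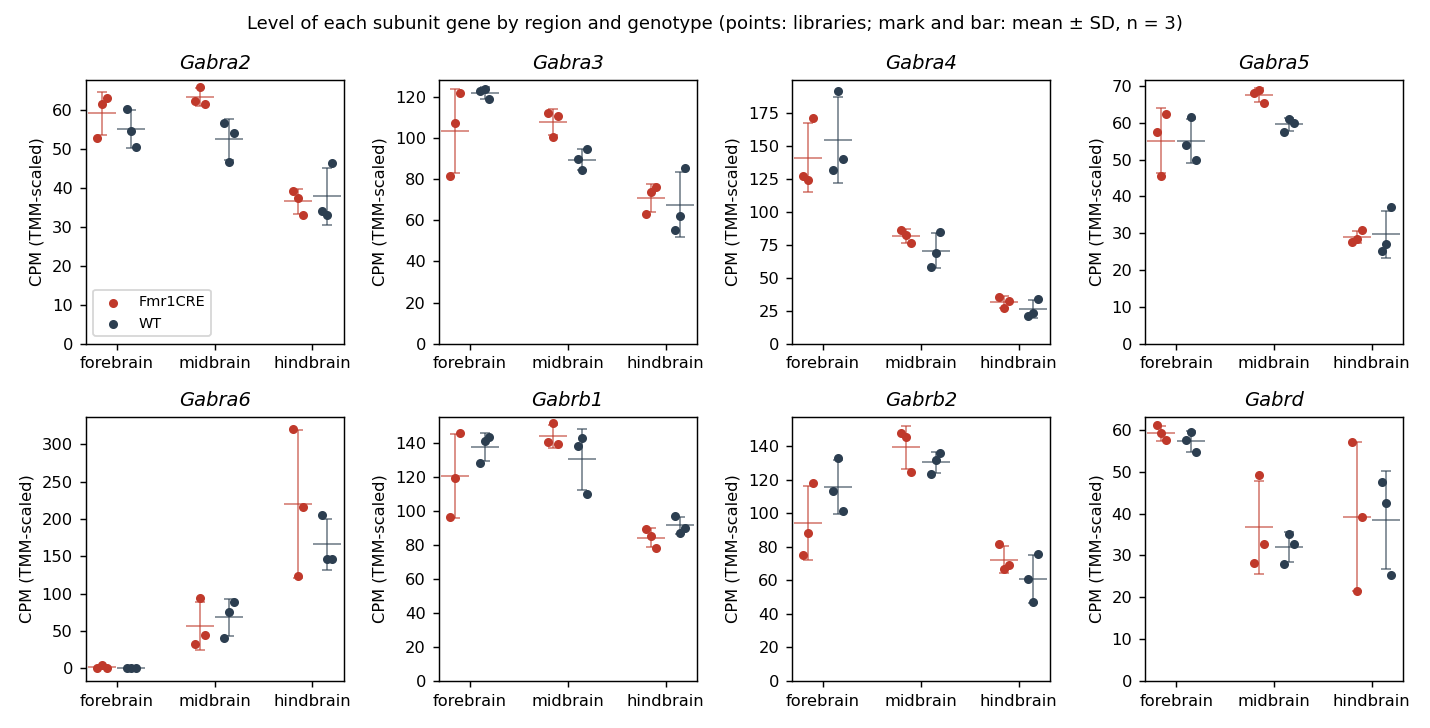
Level of each gene in CPM (linear axis, scaled by TMM) in the 3 regions, with 1 point per library, red for Fmr1CRE and dark blue for WT, and the mean ± SD of 3 mice per group. Gabra6 is close to 0 in forebrain and reaches 321 CPM in hindbrain, while Gabra4 falls from forebrain to hindbrain.

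Gabra6, the granule neuron subunit, was listed with 13, 109 and 6 counts in the forebrain of Fmr1CRE replicates 1, 2 and 3, and with 0, 7 and 3 counts in that of WT replicates 1, 2 and 3. In midbrain it stood at 33.3, 94.0 and 45.2 CPM in the Fmr1CRE mice and at 41.2, 75.1 and 89.6 CPM in the WT mice. In hindbrain it stood at 321, 123 and 217 CPM and at 205, 147 and 146 CPM. The 3 regions did not overlap: every hindbrain library was above every midbrain library, and every midbrain library above every forebrain library. The log2 fold change for midbrain against hindbrain was -1.61 ± 0.40 (SE, n = 6 per region, edgeR adjusted p = 0.00349). Against forebrain the median was 0.269 CPM, with 60.1 CPM in midbrain and 176 CPM in hindbrain. The fitted log2 fold change, given as a description because the forebrain counts are few and mostly those of Fmr1CRE replicate 2, was -8.58 for forebrain against hindbrain and -6.98 for forebrain against midbrain, and -9.79 and -7.78 without that mouse.

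Within midbrain and hindbrain, Gabra6 varied more between mice than any other of the 8 genes, with a coefficient of variation of 41.9% in midbrain and 37.5% in hindbrain. Mice that were low in hindbrain were high in midbrain. Fmr1CRE replicate 1 had the highest hindbrain level (321 CPM) and the lowest midbrain level (33.3 CPM), and Fmr1CRE replicate 2 the lowest hindbrain level (123 CPM) and the highest midbrain level (94.0 CPM). Across the 6 mice Pearson's r between the 2 regions was -0.88 (two-sided exact permutation p = 0.0125, adjusted over the 8 genes 0.1) and Spearman's rho was -0.94 (p = 0.0167, adjusted 0.0667), and r was -0.95 without the 2 mice farthest from the median hindbrain level. This relation, examined after the values were seen, did not pass the correction. The summed granule neuron markers were at 1646 CPM in hindbrain and 545 in midbrain for Fmr1CRE replicate 1, and at 905 and 945 for Fmr1CRE replicate 2. Across the 6 mice r was -0.86 (exact permutation p = 0.0292, not adjusted) and rho was -0.77 (exact permutation p = 0.103). The lowest hindbrain sum was that of WT replicate 3 (858 CPM), and the highest midbrain sum that of WT replicate 2 (966 CPM). Cbln3, a secreted protein of granule neurons, and Gabra6 were also both highest in the forebrain of Fmr1CRE replicate 2, at 7.74 and 4.49 CPM, where the other 5 forebrain libraries had 0.748 to 2.06 and 0 to 0.513 CPM. The ratio of Gabra6 to Cbln3 was 0.535 to 0.761 in midbrain and 0.688 to 0.942 in hindbrain, a narrower span than that of the levels. Since Cbln3 was also the gene most like Gabra6 over the 18 libraries (r = 0.99), this span is a description and not support. Against the whole marker list the regions stayed apart. Gabra6 per 100 CPM of the summed list was 5.89 to 10.6 in midbrain and 13.5 to 19.5 in hindbrain. The part of granule neuron content in these differences was not tested.

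**Figure D2:**
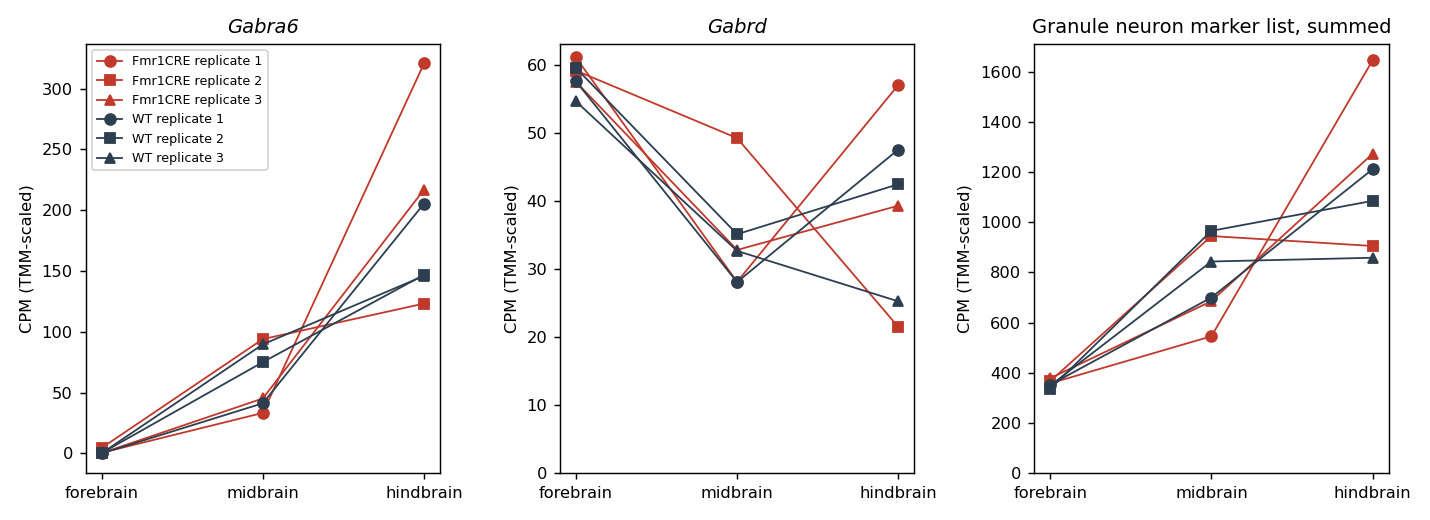
Levels of Gabra6, Gabrd and the 10 summed granule neuron markers in CPM (linear axes) in the 3 regions of each mouse, 1 line per mouse, red for Fmr1CRE and dark blue for WT, with a marker shape per replicate number. Fmr1CRE replicate 1 is highest in hindbrain in all 3 panels, and Fmr1CRE replicate 2, lowest in hindbrain for Gabra6 and Gabrd, is highest in midbrain for both.

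Gabra4, the forebrain partner of delta, ranged over 124 to 191 CPM in forebrain, with 127, 124 and 171 CPM in Fmr1CRE and 131, 191 and 140 CPM in WT mice. It stood at 86.0, 82.5 and 76.0 CPM in Fmr1CRE midbrain and 58.0, 68.6 and 84.5 CPM in WT midbrain, and at 35.6, 26.8 and 32.5 CPM in Fmr1CRE hindbrain and 21.1, 23.1 and 33.7 CPM in WT hindbrain. No library of 1 region overlapped with those of another. The log2 fold change was 2.36 ± 0.15 for forebrain against hindbrain (edgeR adjusted p = 1.81e-09), 0.96 ± 0.14 for forebrain against midbrain (0.000204) and 1.40 ± 0.14 for midbrain against hindbrain (1.02e-06). Gabrb1, its head-to-head neighbour, changed less: the log2 ratio of Gabra4 to Gabrb1 counts was 0.19 ± 0.20 (SD, n = 6) in forebrain, then -0.86 ± 0.30 in midbrain and -1.63 ± 0.37 in hindbrain. Each pair of regions differed (two-sided exact permutation p = 0.00216, the smallest this unpaired test allows, adjusted over 6 tests 0.00216). Of the other neighbours, the log2 ratio of Gabra6 to Gabrb2 was -1.21 ± 0.62 in midbrain and 1.48 ± 0.45 in hindbrain (exact permutation p = 0.00216). In forebrain it was -8.47 ± 2.66, given as a description because Gabra6 had few counts there and the ratio depends on the 0.5 added to each. These ratios were chosen after the values were seen, and their tests treat the regions of a mouse as independent, which they are not. Neighbouring genes thus differed by unequal amounts, between all regions for Gabra4 and Gabrb1 and between midbrain and hindbrain for Gabra6 and Gabrb2.

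Gabrd, whose subunit replaces gamma in receptors outside synapses, was even across forebrain libraries, at 61.1, 59.2 and 57.5 CPM in Fmr1CRE and 57.6, 59.6 and 54.6 CPM in WT mice. In midbrain it stood at 28.1, 49.2 and 32.8 CPM and at 28.1, 35.1 and 32.6 CPM, and in hindbrain at 57.0, 21.5 and 39.3 CPM and at 47.6, 42.5 and 25.2 CPM. All forebrain libraries lay above all midbrain libraries, whereas the hindbrain libraries reached into both ranges. The log2 fold change was 0.77 ± 0.20 for forebrain against midbrain (edgeR adjusted p = 0.0145), 0.58 ± 0.20 for forebrain against hindbrain (0.0230) and -0.18 ± 0.20 for midbrain against hindbrain (0.482). The calls against forebrain are close to the threshold. Without the mice of replicate 3 the edgeR adjusted p was 0.084 against midbrain and 0.17 against hindbrain. The call against hindbrain was also lost without Fmr1CRE replicate 3 (0.0653), WT replicate 2 (0.056) or WT replicate 3 (0.0853), and the call against midbrain without Fmr1CRE replicate 3 (0.0555), WT replicate 1 (0.0712) or WT replicate 2 (0.0572). The same mice stood out as for Gabra6, Fmr1CRE replicate 1 highest in hindbrain and Fmr1CRE replicate 2 highest in midbrain, and r between hindbrain and midbrain was -0.76 (exact permutation p = 0.0444, adjusted 0.119), with rho = -0.71 (p = 0.136, adjusted 0.363) and r = -0.37 without the 2 farthest mice. Without Fmr1CRE replicate 2 the difference between midbrain and hindbrain was -0.45 (adjusted p = 0.0369).

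Gabra2, Gabra3 and Gabra5, the alpha subunits with the histidine, were each lower in hindbrain than in forebrain and midbrain, and none passed the test between the latter. Gabra2 ranged over 50.6 to 63.1 CPM in forebrain, 46.6 to 66.0 in midbrain and 33.0 to 46.3 in hindbrain, so that all hindbrain libraries lay below all others. Its log2 fold change was 0.62 ± 0.09 for forebrain against hindbrain (edgeR adjusted p = 3.38e-05), 0.63 ± 0.09 for midbrain against hindbrain (3.83e-05) and -0.01 for forebrain against midbrain, with a 95% interval of -0.21 to 0.18. Gabra5 ranged over 45.5 to 62.5 CPM in forebrain, 57.6 to 69.0 in midbrain and 25.2 to 37.1 in hindbrain. It was 0.91 ± 0.10 higher (log2) in forebrain and 1.11 ± 0.10 higher in midbrain than in hindbrain (adjusted p = 1.27e-06 and 2.55e-07), and the difference between forebrain and midbrain was -0.20 with an interval of -0.41 to 0.01. Gabra3, an early-expressed subunit of monoaminergic, cholinergic and reticular thalamic neurons, ranged over 81.6 to 124 CPM in forebrain, 84.4 to 112 in midbrain and 55.3 to 85.6 in hindbrain. These regions overlapped: the lowest forebrain library, Fmr1CRE replicate 1, lay below the highest hindbrain library, WT replicate 3. Gabra3 was 0.70 ± 0.11 higher in forebrain than in hindbrain (adjusted p = 5.33e-05) and 0.50 ± 0.11 higher in midbrain than in hindbrain (0.00118). Its difference between forebrain and midbrain was 0.19 with an interval of -0.03 to 0.42, although the WT libraries of these regions did not overlap (119 to 124 and 84.4 to 94.6 CPM).

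The beta genes, whose subunits form the GABA-binding interface with alpha, were also lowest in hindbrain. Gabrb1 ranged over 96.3 to 145 CPM in forebrain, 109.7 to 151 in midbrain and 78.1 to 97.0 in hindbrain. It was 0.55 ± 0.09 higher (log2) in forebrain and 0.64 ± 0.09 higher in midbrain than in hindbrain (edgeR adjusted p = 0.000113 and 3.73e-05). Gabrb2 ranged over 75.4 to 133 CPM in forebrain, 124 to 148 in midbrain and 46.8 to 81.8 in hindbrain, and was highest in midbrain. It was 1.02 ± 0.12 higher in midbrain and 0.65 ± 0.12 higher in forebrain than in hindbrain (adjusted p = 7.09e-06 and 0.000366). Its log2 difference of -0.37 ± 0.12 between forebrain and midbrain passed narrowly (edgeR adjusted p = 0.0462), and with the mouse as a block the adjusted p was 0.0895. The call was also lost without Fmr1CRE replicate 1 (0.186), Fmr1CRE replicate 2 (0.156), WT replicate 1 (0.136) or WT replicate 3 (0.112), and in the WT mice alone the difference was -0.17 (0.585). Without the mice of replicate 3 it was -0.45 and passed (edgeR adjusted p = 0.0227).

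Without the mice of replicate 3, the log2 fold change for forebrain against hindbrain was 0.68 for Gabra2, 0.77 for Gabra3, 2.44 for Gabra4, 1.012 for Gabra5, 0.43 for Gabrb1 and 0.67 for Gabrb2, and these 6 genes kept their calls (edgeR adjusted p of at most 0.00291). For forebrain against midbrain Gabra4 was at 0.96 (0.00201), while Gabra2 (-0.01), Gabra3 (0.16), Gabra5 (-0.23) and Gabrb1 (-0.25) did not pass. The fitted values of Gabra6 were -8.33 against hindbrain and -6.63 against midbrain.

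**Figure D3:**
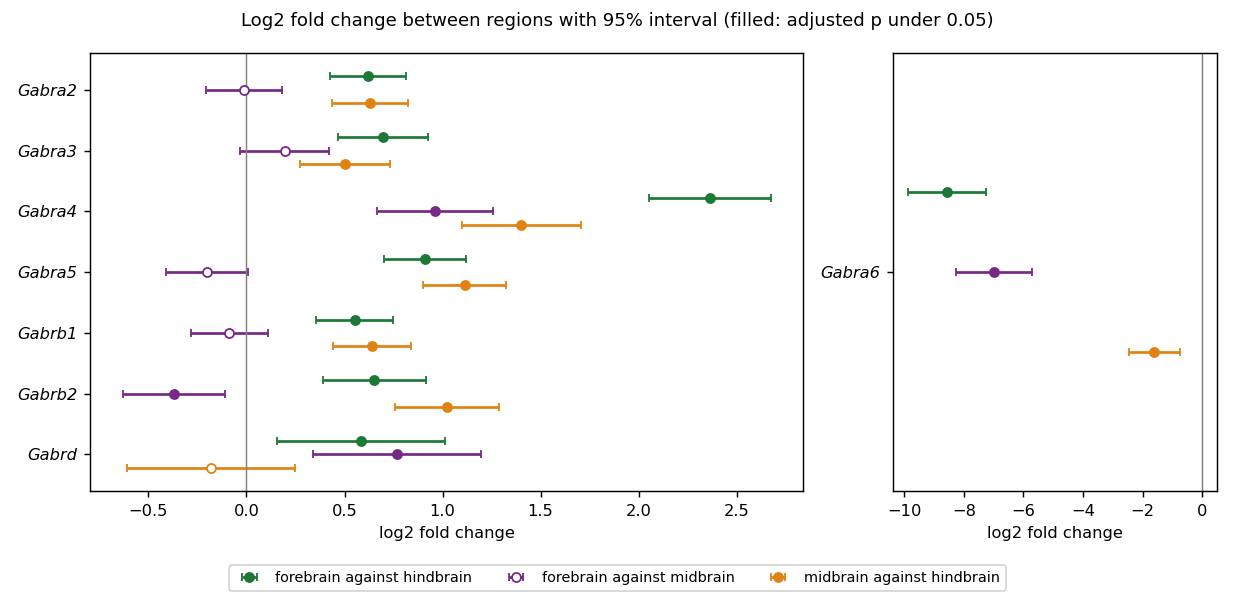
Log2 fold change between regions with its 95% interval for each gene, on a separate axis for Gabra6, in green for forebrain against hindbrain, purple for forebrain against midbrain and orange for midbrain against hindbrain, filled where the edgeR adjusted p was under 0.05. The 7 genes other than Gabra6 lie to the right of 0 for forebrain against hindbrain, and Gabra6 lies at -8.58.

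To compare genes with each other, counts were divided by the effective transcript length, and the level is given here as CPM per kilobase. In forebrain Gabra4 was highest, at 64.6 ± 12.0 (SD, n = 6), and its range did not overlap with that of Gabra3, at 43.0 ± 6.28. Gabra3, Gabrb2 (33.4 ± 6.68), Gabrd (29.6 ± 1.13) and Gabra5 (26.8 ± 3.27) each overlapped with the next, as did Gabra2 (17.8 ± 1.59) and Gabrb1 (17.3 ± 2.53), and Gabra6 was last at 0.587 ± 1.09. In midbrain the order was flat: Gabrb2 (43.0 ± 3.26), Gabra6 (39.3 ± 16.5), Gabra3 (37.6 ± 4.31), Gabra4 (33.2 ± 4.77) and Gabra5 (30.9 ± 2.27) each overlapped with the next. Gabra5 did not overlap with Gabrb1, which came next, and Gabrb1, Gabra2 and Gabrd lay at 17.4 to 18.4. In hindbrain Gabra6 was highest, at 120.3 ± 45.1, and apart from Gabra3 at 26.4 ± 4.23. Below it each gene from Gabra3 to Gabra2 (11.6 ± 1.60) overlapped with the next. The gene at the head of the order was thus an arginine-type alpha in forebrain and hindbrain, and no gene stood apart at the head in midbrain.

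The share of each alpha gene among the 5, per length, put these levels on 1 scale. Gabra4 held 42.0 ± 3.13% (SD, n = 6) of the sum in forebrain, 20.9 ± 1.99% in midbrain and 6.94 ± 1.35% in hindbrain. Gabra6 held 0.415 ± 0.783%, 24.2 ± 8.02% and 63.5 ± 8.92%. The other alpha genes had their lowest shares in hindbrain: Gabra3 went from 28.1 ± 2.95% in forebrain and 23.9 ± 3.54% in midbrain to 15.0 ± 4.19%, Gabra5 from 17.6 ± 1.92% and 19.6 ± 1.96% to 8.06 ± 2.03%, and Gabra2 from 11.8 ± 1.49% and 11.5 ± 1.67% to 6.53 ± 1.60%. Shares of 1 sum are bound to each other, so a rise of 1 gene lowers the others. Of the 24 comparisons of 8 measures between regions, 18 had an adjusted p under 0.05 (two-sided exact permutation test, Benjamini-Hochberg over the 24). Gabra3 missed the threshold between forebrain and midbrain (4.26 points, adjusted 0.0684) and passed it without Fmr1CRE replicate 1 (5.95 points, adjusted 0.0317). Gabra5 missed it there too (-1.97 points, adjusted 0.127) and passed when the mice were paired (adjusted 0.0417). For Gabra4 every pair of regions differed at p = 0.00216 in the exact permutation test, the smallest it allows (adjusted 0.00325). The share of Gabra6 differed between midbrain and hindbrain at the same p. Its shares against forebrain, counted among the 18, gave that p too. They are a description and not support, since Gabra6 passed the filter on low counts only through midbrain and hindbrain.

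**Figure D4:**
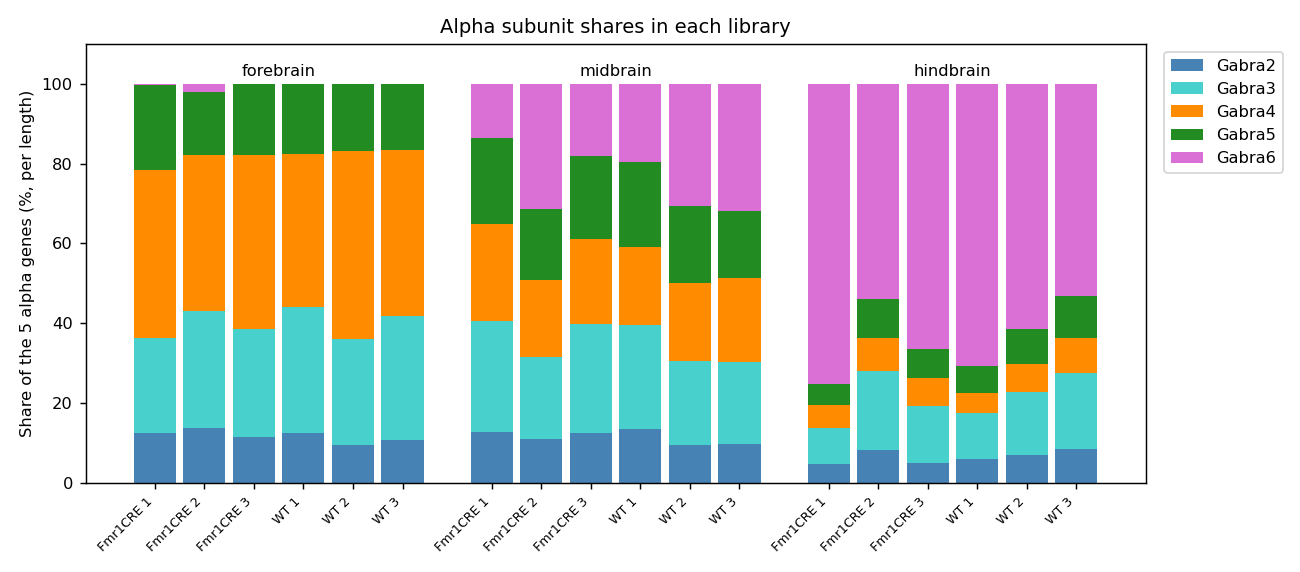
Share of each of the 5 alpha genes in their per-length sum (stacked to 100%, linear axis) in each of the 18 libraries, grouped by region. Gabra6 takes 53.2 to 75.3% of each hindbrain library, 13.5 to 31.9% of each midbrain library and at most 2.01% of any forebrain library.

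Together Gabra4 and Gabra6, the arginine group, held 42.4 ± 2.88% of the alpha sum in forebrain, 45.1 ± 6.87% in midbrain and 70.4 ± 7.71% in hindbrain. Hindbrain differed from both other regions (exact permutation p = 0.00216, adjusted 0.00325 for each). Forebrain and midbrain did not differ beyond their spread (difference -2.63 percentage points, exact permutation p = 0.405, adjusted 0.463), although Gabra4 had a lower and Gabra6 a higher share in midbrain. With lengths taken as the union of all exons the difference was -9.63 points (adjusted p = 0.0182). Gabrd per 100 alpha was 19.6 ± 2.60 in forebrain against 10.9 ± 1.502 in midbrain and 10.6 ± 2.88 in hindbrain, and forebrain differed from both (adjusted exact permutation p = 0.00325 for each), while midbrain and hindbrain did not pass (adjusted 0.846).

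Gabrb2 held 65.7 ± 2.46% of the sum of Gabrb1 and Gabrb2 in forebrain, 70.0 ± 2.59% in midbrain and 63.9 ± 4.95% in hindbrain. Midbrain was above hindbrain by 6.13 points (exact permutation p = 0.00866, adjusted 0.0122) and above forebrain by 4.36 points (p = 0.0152, adjusted 0.0202), and the latter did not pass when the mice were paired (adjusted 0.118) or without Fmr1CRE replicate 1 (0.0667), Fmr1CRE replicate 2 (0.0741) or WT replicate 3 (0.0741). Without the mice of replicate 3 neither passed (adjusted 0.152 against forebrain and 0.0807 against hindbrain).

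Without the mice of replicate 3, of 16 differences of these measures between forebrain and another region, 1 came out on the other side of the threshold, that of Gabrb2 against midbrain.

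All shares are within the genes listed here and say nothing of shares among all alpha or all beta subunits, and the order of the regions for Gabrb2 holds only against Gabrb1.

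Between genotypes, none of the 8 genes passed the test in any region. Gabra6 was below the filter on low counts in forebrain, so 7 genes were tested there and 8 in each of the other regions, and 0 were called. Over all genes the share called was 0% of 18467 in forebrain, 0.00543% of 18400 in midbrain and 0% of 19112 in hindbrain. At an unadjusted p under 0.05 there were 0, 2 and 0 of the genes, against 5.43%, 6.17% and 5.13% of all genes tested, and DESeq2 called 0 in each region. The 2 were Gabra2 and Gabra3 in midbrain. Gabra2 stood at 62.4, 66.0 and 61.6 CPM in Fmr1CRE midbrain and at 56.7, 46.6 and 54.0 CPM in WT midbrain, a log2 fold change of 0.27 with a 95% interval of 0.04 to 0.50 (edgeR adjusted p = 0.803). Gabra3 stood at 112, 101 and 111 CPM and at 89.7, 84.4 and 94.6 CPM, a log2 fold change of 0.27 with an interval of 0.05 to 0.49 (edgeR adjusted p = 0.802). The genotypes did not overlap for these genes, nor for Gabra5 (65.4 to 69.0 against 57.6 to 61.1 CPM, log2 fold change 0.18, adjusted p = 0.809), which makes 3 of 8 genes in midbrain where 11.3% of all genes did not overlap. In forebrain and hindbrain 0 of 7 and 0 of 8 genes were without overlap, against 10.3% and 10.9%.

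**Figure D5:**
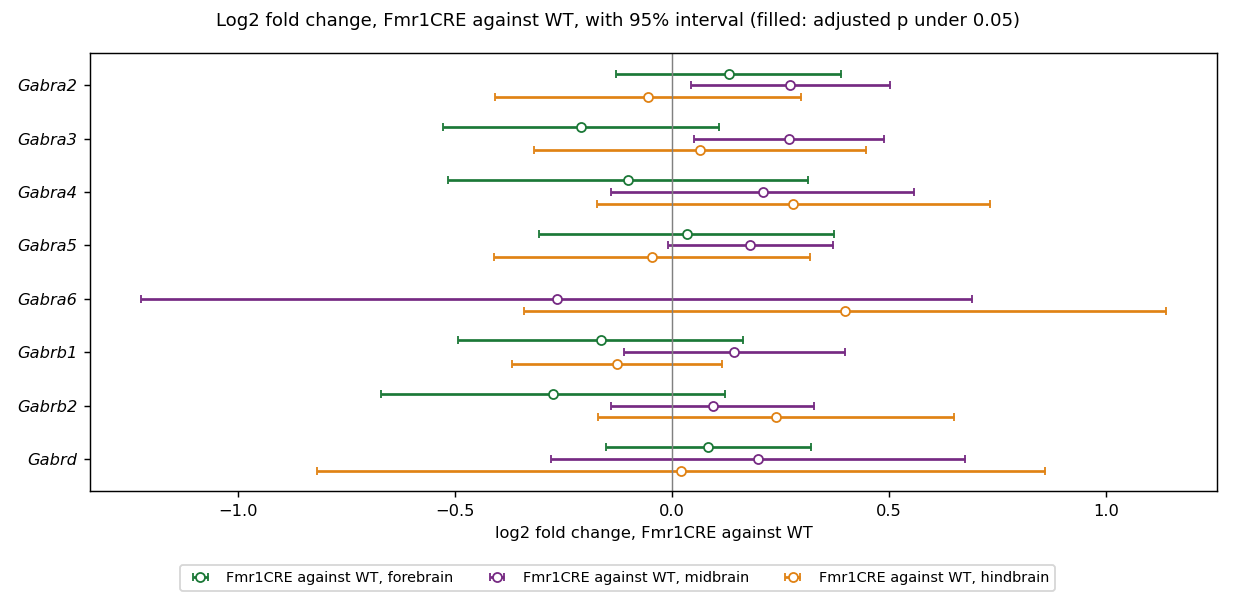
Log2 fold change of Fmr1CRE against WT with its 95% interval for each gene in forebrain (green), midbrain (purple) and hindbrain (orange), open symbols marking an adjusted p of 0.05 or more. All symbols are open, and the intervals of Gabra2 and Gabra3 in midbrain lie above 0.

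The intervals show which changes remain possible. In forebrain those of Gabra4 (-0.52 to 0.31) and Gabrb2 (-0.67 to 0.12) were the widest, and in hindbrain that of Gabrd (-0.82 to 0.86), where the SE was 0.36. Gabra6 differed by -0.27 with an interval of -1.22 to 0.69 in midbrain and by 0.40 with an interval of -0.34 to 1.14 in hindbrain. Without the mice of replicate 3, the forebrain log2 fold change of Gabrb2 was -0.54 (edgeR adjusted p = 0.285), and that of Gabra3 was -0.34 (adjusted p = 0.413). Gabra2, Gabra4, Gabra5, Gabrb1 and Gabrd were then at 0.04, -0.31, -0.11, -0.27 and 0.09, and none passed. The difference of the genotype contrast between regions passed for 0 of the 8 genes (0% of 20363 genes), with an unadjusted p under 0.05 for 1 of them, Gabra6 (edgeR adjusted p = 0.66), against 7.54% of all genes. Among the shares, the genotypes overlapped in all 24 comparisons. The lowest exact permutation p was 0.200, where 3 mice against 3 cannot go below 0.1.

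Of the 11 other GABA-A subunit genes, 9 passed the filter over the regions, and Gabrp and Gabrr3 had at most 2 counts in any library. In forebrain against hindbrain 2 were called higher and 1 lower, in forebrain against midbrain 0 higher and 5 lower, and in midbrain against hindbrain 4 higher and 0 lower, where 51.7%, 19.3% and 49.1% of all genes were called. Gabrg3, a gamma subunit, was higher in forebrain than in hindbrain by 1.53 ± 0.13 (log2, edgeR adjusted p = 6.19e-08). The theta subunit Gabrq was lower in forebrain than in midbrain, with a log2 fold change of -1.29 ± 0.33 (edgeR adjusted p = 0.0126). The rho subunits Gabrr1 and Gabrr2, known from retina, had 1 to 5 and 3 to 15 counts in forebrain and did not pass the filter there. Gabrr1 also had only 1 to 6 counts in hindbrain and passed the filter through midbrain alone, at 5 to 20 counts. Gabrr2 reached at most 38 counts in the other regions. The calls of Gabrr1, and those of Gabrr2 against forebrain, are counted above as a description and not support. None of the genes tested in a region, 7 to 9 of the 11, differed between genotypes.

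All 20 genes for receptor assembly, trafficking and anchoring were tested. In forebrain against hindbrain 9 were called higher and 4 lower, in forebrain against midbrain 2 higher and 6 lower, and in midbrain against hindbrain 12 higher and 2 lower, beside the same 51.7%, 19.3% and 49.1% of all genes. The median log2 fold change was 0.23, -0.13 and 0.58, beside -0.01, 0.02 and -0.03 over all genes. Shisa7, an auxiliary protein of the receptor, was 2.61 ± 0.18 higher (log2) in forebrain than in hindbrain (edgeR adjusted p = 5.85e-09), Prickle2, a planar polarity protein, 2.04 ± 0.13 (1.93e-09) and Trak1, a kinesin adaptor, 1.34 ± 0.14 (8.87e-07). Nlgn2 and Slitrk3, adhesion proteins of inhibitory synapses, were higher in midbrain than in hindbrain by 1.13 ± 0.14 and 1.09 ± 0.08 (5.77e-06 and 5.45e-08). The ubiquitin-like Gabarap and Gabarapl2 were lower in forebrain than in hindbrain, with log2 fold changes of -0.45 and -0.54. Between genotypes 0 of the 20 were called in each region. At an unadjusted edgeR p under 0.05 there were 0, 2 and 3 in forebrain, midbrain and hindbrain, beside 5.43%, 6.17% and 5.13% of all genes tested.

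The genes most like each member in log2 CPM over the 18 libraries, which come in 3 libraries from each mouse and largely reflect the regions, were found by Pearson's r, given as a description. Gabra6 was most like Cbln3 (0.99), the homeobox gene En2 (0.99) and the Purkinje cell gene Pcp2 (0.99), and Gabra4 was most like Lix1, St6gal2 and Tusc3 (each 0.98). Gabra5 was most like Pcdh20, Slitrk3 and Gng2 (each 0.97), Gabra3 like Cep68, Cyld and Tug1 (0.97, 0.97 and 0.96), and Gabra2 like Pnmal1, Lmo7 and Foxp2 (each 0.94). Gabrb1 was most like Kif3b, Scn2b and Ccdc177 (each 0.95), Gabrb2 like Lrrn3, Dgke and Syt10 (0.96, 0.96 and 0.96), and Gabrd, with the weakest likeness, like Tesc, Ppp1ca and Zfyve28 (0.90, 0.86 and 0.84). Among the 8 genes themselves, Gabra2 and Gabra5 and Gabra5 and Gabrb2 had r = 0.90, and Gabrd had r between -0.60 (Gabra6) and 0.50 (Gabra4) with the others.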

How the data were processed

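Gene counts as deposited by the authors were used, 1 column per library, made per the labels from single-end reads with Salmon 0.14.0 on mm10 and imported into DESeq2 1.30.1 by the authors; the annotation release is not given in the sources used here. The deposited transcript files hold TPM and estimated counts (salmon's expected counts), and served only to give 1 effective length per gene, the TPM-weighted mean over all 18 files, since their names disagree with the sample records. The table of variance-stabilized values was not used. Symbols came from GENCODE M21 for 53363 of 53468 IDs. The members and gene lists were chosen with earlier results of these data known.

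Counts were tested with edgeR 4.0.16 (R 4.3.3; TMM, filterByExpr, glmQLFit and glmQLFTest, Benjamini-Hochberg over all genes tested, threshold 0.05). Region contrasts used all 18 libraries in 6 groups, and genotype contrasts the 6 libraries of a region. The script was tested on simulated data. DESeq2 1.42.0, other scalings, filters and left-out mice were alternatives. Shares were compared by two-sided exact permutation tests in Python 3.11.15. Correlations of log2 CPM used a prior count of 2. Ratios of neighbouring genes (with 0.5 added to each count) and the relation of hindbrain to midbrain levels across mice were chosen after seeing the data. Named genes were the 8 members, the 3 most like each, and up to 6 of each other list with the largest region change among those called; some of these, and shares that need them, are not reported here; Gabarap and Gabarapl2 were named after their values were seen. Libraries of the same region come from different mice and differed by more than sampling noise. Regions of a mouse share an animal, so the mouse was a block in an alternative; correlations of deviations from the group mean between libraries of the same mouse were -0.17 to 0.18. Replicate numbers do not pair the genotypes.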

Additional observations from a re-analysis of the deposited data

Results flagged for a closer look

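Within the 6 libraries of a region, a library stood far from the others for 5 of the 48 sets of values examined, where about 1 in 20 sets is expected to do so by chance. Gabra6 in forebrain was 4.49 CPM in Fmr1CRE replicate 2 with the next library at 0.513, and its share of the alpha sum there was 2.01% with the next at 0.243%. Gabrd in midbrain was 49.2 CPM in the same mouse with the next library at 35.1. Gabrb1 in midbrain was lowest in WT replicate 3, at 109.7 CPM with the next at 138. The share of Gabra5 among the alpha genes in forebrain was 21.3% in Fmr1CRE replicate 1 with the next at 17.7%.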

How the results depend on the processing

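Under the alternatives, 328 of 333 values of the 8 genes between regions kept their sign and 316 also their side of the threshold, and 0 of 322 values between genotypes passed. With the mouse as a replicate block, 8, 3 and 7 of the 8 genes were called in forebrain against hindbrain, forebrain against midbrain and midbrain against hindbrain; Gabrb2 between forebrain and midbrain was the gene lost (adjusted p = 0.0895), and the block changed no other call of these genes; paired shares passed for 7, 4 and 7 of 8 measures, with Gabra5 gained and the share of Gabrb2 lost between forebrain and midbrain. With the replicate number as a block, 0 were called between genotypes; same-numbered mice of the 2 genotypes had correlations of deviations of -0.12 to 0.07. Leaving out 1 mouse at a time gave 2 to 3 genes of the 8 in forebrain against midbrain, the 2 without WT replicate 1, and 2258 to 4001 of all genes, 2592 without Fmr1CRE replicate 1, 2258 without WT replicate 1 and 2337 without WT replicate 2; WT mice alone gave 1729. It gave 0 to 4 genes for the interaction and 0 in forebrain, 0 to 4 in midbrain and 0 to 5 in hindbrain between genotypes. DESeq2 called 51 genes for the interaction and 31, 62 and 60 between genotypes in forebrain, midbrain and hindbrain; no filter gave 7 for the interaction and 11 in midbrain and in hindbrain; 1 fit of all libraries gave 1, 0 and 1; a minimum of 10 counts gave 0 in midbrain; without replicate 3 of both genotypes there were 131 for the interaction, 3 in midbrain and 1 in hindbrain. The cause was not tested. Gabrd lost its call between forebrain and hindbrain with library totals alone (adjusted p = 0.0805). Gabra3 lost its call between midbrain and hindbrain in the WT mice alone (0.0573). Of 240 differences of shares, 19 changed sign or side. Shares with further subunits in the sums are not reported here. Few counts limit Gabra6 in forebrain.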
